A study of Mus musculus with 12 samples.

Results

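The Ago peaks examined here hold a site that matches miR-451a except for a single mismatch at seed position 7. Argonaute (Ago) proteins carry microRNAs to messenger RNA, and HITS-CLIP sequences the RNA fragments that crosslink to an immunoprecipitated protein. Members were all peaks whose deposited miR-451a code was 7 and whose deposited miR-144-3p code was 0. There were 1035 of them among 106382 peaks. No read count enters this rule, but it was set with earlier results of these data known. The peaks themselves were called by the authors on all Ago libraries together. The libraries came from fetal liver cells of C57BL/6J embryos in 4 groups of 3. KO Ago and KO IgG libraries came from embryos with both copies of the locus of miR-144 and miR-451a deleted, so that miR-144 is absent along with miR-451a. WT Ago and WT IgG libraries came from wild-type embryos. The IgG libraries were precipitated with control IgG in place of the Ago antibody. The labels used here state neither the embryos' age nor any pooling of livers, nor which Ago and IgG libraries shared a liver. The p-values thus reflect how far these libraries differ from each other, which may in part be technical. Each library goes by its title number.

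miR-451a is made from the same transcript as miR-144 and is abundant in maturing red cells. Its hairpin is too short for Dicer and is cut by the slicer activity of Ago2. A microRNA finds its targets mainly through the bases near its 5′ end, the seed, and a target with a mismatch inside the seed is usually bound less firmly than a full match. Fetal liver is the main site of red cell formation in the mid-gestation embryo and also holds hepatocytes, macrophages and blood progenitors.

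The mature sequence of miR-451a from RefSeq (GRCm38.p6, the assembly behind mm10; chr11:78073186-78073207, plus strand) is shown first because its seed, bases 2 to 8 in capitals, defines the site.
miR-451a: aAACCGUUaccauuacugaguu
Read 5′ to 3′, the full 6-mer site on a target is ACGGTT, whose first letter lies opposite position 7 of the microRNA. A mismatch at position 7 leaves CCGGTT where that base is C, GCGGTT where it is G and TCGGTT where it is T, and the G form can still form a wobble pair with the U of the microRNA. Each motif was sought on the strand of the peak. In 32841 RefSeq promoter windows of the mouse, counted on either strand, ACGGTT was present in 3.63%, CCGGTT in 6.84%, GCGGTT in 6.84% and TCGGTT in 4.6%.

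The label was checked where sequence could be read. RefSeq windows around transcription starts covered 27 of the 1035 member peaks whole, and 25 of these held a position-7 mismatch form within the peak, while 0 held ACGGTT. Peaks with a miR-451a code of 6-mer or longer gave the opposite picture, with ACGGTT in 14 of 14 and a position-7 form in 0. Among peaks in these windows without a miR-451a code, 0 of 452 held a position-7 form. The mismatched base was C in 11 of the 25 peaks, G in 10 and T in 4. The peaks of Sdhd and Rpl38 held no form between their bounds, and the stretch that the authors searched around a peak is not stated in those sources.

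The following sites are shown to let the mismatch be seen in its context. They are the 4 readable peaks with the most WT Ago reads for C and for G, and all 4 for T, a choice made after the reads were seen. Capitals mark the position-7 form, and lower case is the flanking transcript sequence inside the peak, all from RefSeq on mm10.
Psmd13, chr7:140882414-140882439, plus strand: gccatccctgCCGGTTctgactgctt
Cltc, chr11:86757494-86757514, minus strand: tgcgctgctcCCGGTTccgcc
Atf6, chr1:170867673-170867693, minus strand: gccttttagtCCGGTTcttcc
Nt5c3, chr6:56901841-56901862, minus strand: cgtagcttgtCCGGTTaccttc
Snrnp200, chr2:127208416-127208441, plus strand: ttgtgccaggGCGGTTcgctgaagcg
Ndufa11, chr17:56717844-56717868, plus strand: cgatggtgaaGCGGTTctttgaatc
Dhx36, chr3:62506963-62506979, minus strand: aGCGGTTgagttttggc
Acp1, chr12:30911553-30911575, minus strand: tcgtcccgacGCGGTTtctgggc
Grb10, chr11:11967576-11967595, minus strand: gagccctcctTCGGTTgctc
Mrpl51, chr6:125192033-125192058, plus strand: taacggaattTCGGTTtgggggcgtc
Xk, chrX:9272780-9272801, plus strand: ccccgctgttTCGGTTgccccc
Clns1a, chr7:97696703-97696728, plus strand: ctcgcctctcTCGGTTcgcgtggagc

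These peaks are thinly covered, and none of them could be tested on its own. Ndufa11, a subunit of mitochondrial complex I, had 0, 0 and 0 reads in KO Ago libraries 3, 12 and 13, against 8, 4 and 2 in WT Ago libraries 1, 9 and 10. Acp1, a phosphatase, had 0 reads in each KO Ago library, against 2, 6 and 4 in the WT Ago libraries. Atf6, a sensor of endoplasmic reticulum stress, had 0 reads in each KO Ago library, against 4, 3 and 4 in the WT Ago libraries. The groups did not overlap at any of these 3 peaks, which were picked with 0 KO Ago reads after the reads were seen. Their lack of overlap thus follows largely from the choice. Psmd13, a proteasome subunit, stood apart from them with 2, 7 and 3 reads in KO Ago and 7, 4 and 4 in WT Ago, so that its groups overlapped. Dhx36 held 6 KO Ago and 13 WT Ago reads, Commd3 5 and 5, Cdk5rap3 4 and 2, and an intergenic peak on chromosome 17 held 6 and 0. By mismatched base, the 11 peaks with C held 29 KO Ago and 90 WT Ago reads, the 10 with G held 22 and 97, and the 4 with T held 4 and 24. Unscaled KO Ago reads were below WT Ago reads in 9 of the peaks with C, 9 with G and 4 with T. The KO Ago libraries held 0.726 times the peak reads of the WT Ago libraries in sum, which by itself favours that direction. Only a few of the 25 sites had the base that pairs with position 8 beside the mismatch, 1 with C, 2 with G and 0 with T.

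Reads in the whole set of 1035 peaks made up a smaller part of KO Ago libraries than of WT Ago libraries. The KO Ago libraries 3, 12 and 13 had 0.579%, 0.564% and 0.576% of their peak reads in these peaks. The WT Ago libraries 1, 9 and 10 had 1.83%, 1.58% and 1.53%. The means were 0.573% ± 0.00795 in KO Ago and 1.65% ± 0.161 in WT Ago (SD, n = 3 each), and the groups did not overlap. Exact 95% binomial intervals of the single libraries were 0.539% to 0.616% at the widest in KO Ago and 1.48% to 1.59% at the widest for WT Ago library 10. Here and below, intervals cover counting error only, since PCR copies are not independent molecules.

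IgG libraries of both genotypes had shares near that of KO Ago. They were 0.664%, 0.793% and 0.487% in KO IgG libraries 4, 8 and 14, and 0.598%, 0.896% and 0.766% in WT IgG libraries 2, 6 and 11. The KO IgG and WT IgG values overlapped, with means of 0.648% ± 0.153 and 0.753% ± 0.15 (SD, n = 3 each).

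**Figure D1:**
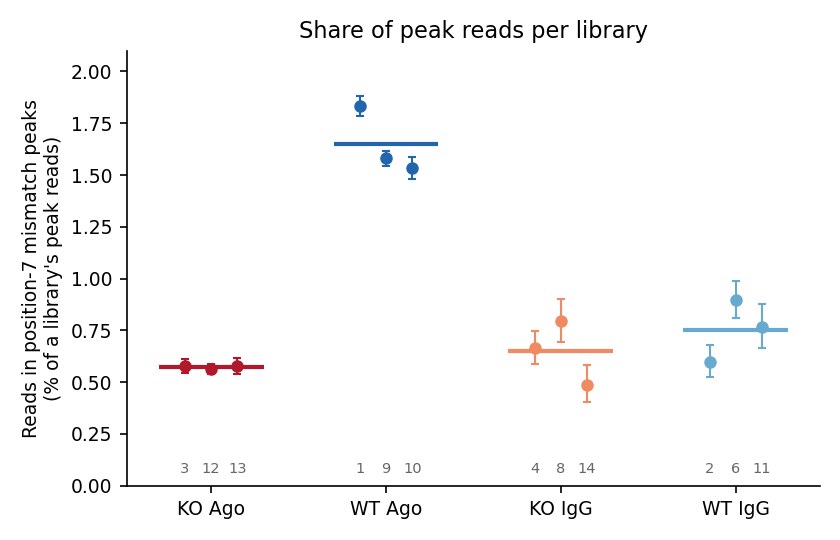
Share of each library's peak reads that fell in the position-7 mismatch peaks, in percent, with 1 point per library, exact 95% binomial intervals as bars and the group mean as a line; the small numbers are the library numbers. The 3 KO Ago points lie between 0.564% and 0.579%, below the 3 WT Ago points and among the IgG points.

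Depth sets what can be said of a single peak. Ago libraries held 147969 to 452157 reads in peaks and IgG libraries 24622 to 42916. A member had a median of 12 reads over the 6 Ago libraries, with quartiles of 8 and 22 and a range of 4 to 279. The libraries' labels could not be checked on the deleted gene, since 0 peaks overlapped mature miR-451a. The single peak within 1000 bases of it on its strand held 2, 1 and 0 reads in KO Ago and 2, 4 and 1 in WT Ago. Peaks with a miR-451a 6-mer or longer and no miR-144-3p code took 0.235%, 0.218% and 0.21% of reads in KO Ago, against 1.63%, 1.41% and 1.28% in WT Ago.

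Most members leaned the same way however thinly they were covered. After scaling for depth, KO Ago reads were below WT Ago reads in 864 of the 1035 members (83.5%), against 38.8% of the 63117 peaks with no code of any microRNA of the locus. No KO Ago read was found in 214 members (20.7%), and no WT Ago read in 1. For the peaks without a code of the locus these shares were 4.18% and 0.537%. Among the 281 members with 4 to 8 Ago reads, the mean share of KO Ago was 0.426 times that of WT Ago. It was 0.389 times for the 252 with 9 to 12 reads, 0.306 times for the 247 with 13 to 22 and 0.341 times for the 255 with 23 or more. The same ratio lay between 1.09 and 1.18 for the uncoded peaks over those 4 ranges of reads.

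By place in the transcript, 466 members lay in coding sequence, 261 in 3′UTRs, 90 in introns, 89 in 5′UTRs, 79 between genes and 17 in pseudogenes. The 5′UTR held 8.6% of members and 2.14% of all peaks. Coding members took 0.238% ± 0.0141 of peak reads in KO Ago and 0.732% ± 0.11 in WT Ago (SD, n = 3 each). Members in 3′UTRs took 0.17% ± 0.025 in KO Ago and 0.508% ± 0.0525 in WT Ago. In both regions every KO library was below every WT library. In 5′UTRs the means were 0.0367% and 0.127%, and in introns 0.0356% and 0.127%. The ratio of KO Ago to WT Ago means was 0.28 to 0.38 in coding sequence, both UTRs, introns and pseudogenes. It was 0.688 between genes, where KO Ago libraries ranged from 0.0434% to 0.0785% and WT Ago libraries from 0.0761% to 0.112%, with overlapping ranges. It was 0.548 for the 33 members in other classes.

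**Figure D2:**
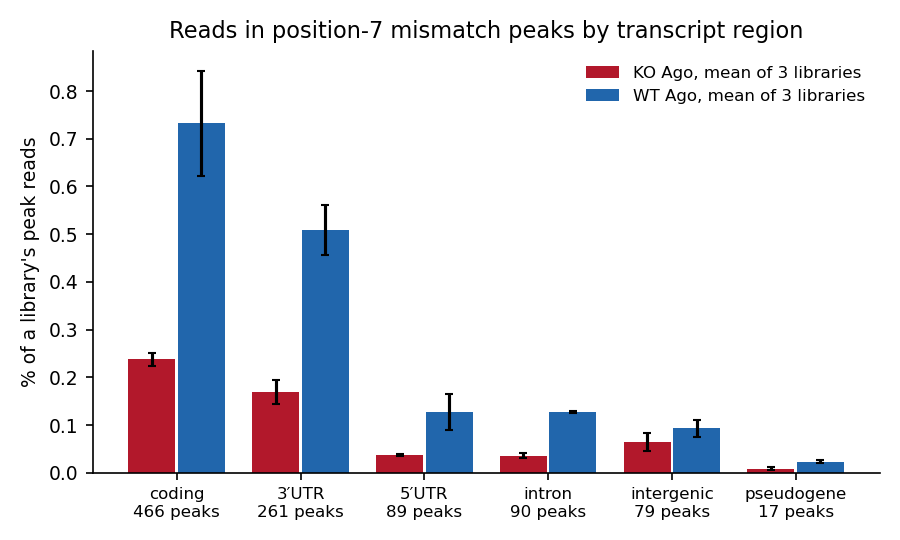
Reads in position-7 mismatch peaks as a percentage of a library's peak reads, by transcript region, as the mean of 3 KO Ago libraries beside the mean of 3 WT Ago libraries; bars show 1 SD and the number of peaks stands under each region. Coding members average 0.238% in KO Ago and 0.732% in WT Ago, and intergenic members are the pair with the smallest gap for their height; the 33 members of other classes are not drawn.

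Only 41 members had enough reads for the test of single peaks, which kept 2425 peaks in all. A peak had to reach about 10 reads in 3 libraries, so a member low in KO Ago could enter only through its WT Ago reads, and the counts below describe these 41 and not the set. The edgeR quasi-likelihood test called 29 of them lower in KO Ago, 0 higher and 12 neither, at an adjusted p under 0.05. Of all 2425 tested peaks, 17.6% were called lower and 1.4% higher. An unadjusted p under 0.05 was reached by 33 members, of which 33 were lower. All 3 KO Ago libraries lay below all 3 WT Ago libraries in 32 of the 41 members, against 22.3% of all tested peaks, and this held for each of the 29 called. The median log2 change was -2.69 over the 41 members and 0.09 over all tested peaks. With scaling by library size alone the median of all tested peaks was 0.25 and that of members -2.53. Leaving out KO Ago library 3 brought in further members, with 77 of 103 called lower, against 20.4% of all peaks tested then. Without KO Ago library 13 it was 74 of 106 (18.2% of all), and without WT Ago library 10 it was 59 of 77 (16.8% of all).

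By region, 13 of 16 tested coding members, 12 of 18 in 3′UTRs, 2 of 3 in introns, 1 of 1 in 5′UTRs and 1 of 3 between genes were called lower. Among all tested peaks of these regions, in the same order, it was 175 of 912, 160 of 903, 38 of 196, 16 of 74 and 26 of 251. Beside other miR-451a codes, each without a miR-144-3p code, 49 of 53 tested peaks with a 6-mer or longer match were called lower, with a median log2 change of -3.44. For a mismatch at position 6 it was 26 of 75 with a median of -0.63, and for position 5 it was 23 of 46 with a median of -1.15. For positions 2 to 4 it was 8 of 46 (17.4%) with a median of -0.23, near the 17.6% called lower among all tested peaks. Of tested peaks with no code of any microRNA of the locus, 76 of 1210 (6.28%) were called lower. Position 7 thus stood between the full match and the other mismatches in these medians, as a description, and differences between codes were not tested.

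**Figure D3:**
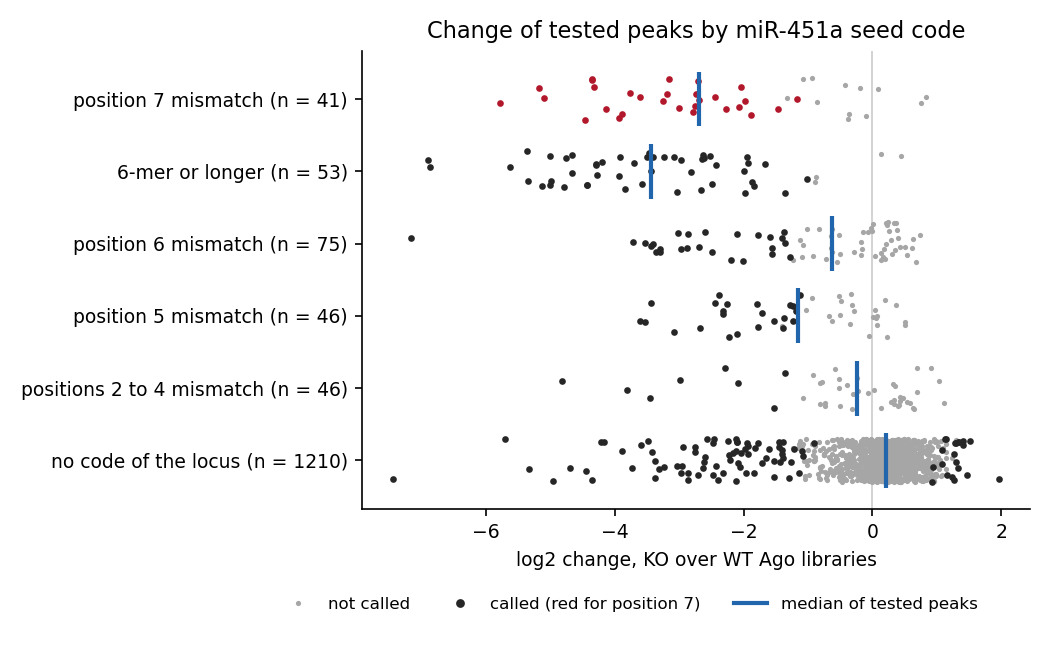
Log2 change of KO over WT Ago libraries for each tested peak, by miR-451a seed code, with called peaks dark (red for position 7), uncalled peaks grey and the median of each row as a blue line. Position-7 peaks have a median of -2.69, between -3.44 for a 6-mer or longer match and -0.63 for a mismatch at position 6; all rows but the lowest leave out peaks with a miR-144-3p code.

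The member with the smallest p lay in the 3′UTR of Tnrc6b, which encodes a GW182 protein that binds Ago and brings deadenylases to its targets. This peak (chr15:80933052-80933081, plus strand) held 2, 1 and 1 reads in KO Ago libraries 3, 12 and 13, against 39, 57 and 21 in WT Ago libraries 1, 9 and 10. Every KO value was far below every WT value. Its level was 38.8 ± 20.2 CPM (reads scaled to a common library depth) in KO Ago and 850 ± 140 CPM in WT Ago (SD, n = 3 each). The log2 change was -4.47 ± 0.48 (SE, edgeR adjusted p = 7.15e-05).

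Tnrc6b belongs to a list of 24 genes of the microRNA silencing machinery, of which 22 had a peak. Of the 677 peaks of this list, 8 were members, where 1035 of all 106382 peaks were. The 8 lay in 6 genes, with 32 KO Ago and 231 WT Ago reads in sum. Ago2, the slicing Argonaute, held 1, 4 and 1 reads in KO Ago and 14, 18 and 8 in WT Ago at its larger 3′UTR member (chr15:73098727-73098759). The other Ago2 member, also in the 3′UTR, held 1 KO Ago and 8 WT Ago reads. A 5′UTR member of Pabpc1, the poly(A)-binding protein, held 2, 6 and 3 reads in KO Ago and 12, 13 and 5 in WT Ago. Its groups overlapped in raw reads, with 6 in KO Ago library 12 and 5 in WT Ago library 10. Those libraries differ in depth, at 341061 and 202876 peak reads. Xpo5, which exports microRNA precursors from the nucleus, held 2 KO Ago and 13 WT Ago reads at a coding member and 2 KO Ago and 6 WT Ago reads at another. The exonuclease Xrn1 held 2 KO Ago and 13 WT Ago reads, and Dcp1a, of the decapping complex, 4 and 4. Of the members in this list, Tnrc6b alone was tested. Over all peaks of the list, 24 were tested, of which 4 were called lower and 2 higher, with a median log2 change of 0.39. The part called lower is near that of all 2425 tested peaks, of which 17.6% were lower and 1.4% higher.

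Red cell genes held 8 members in 7 genes of a list of 31, with 29 KO Ago and 212 WT Ago reads in sum. The list had 1238 peaks, so members were no larger a part of it than of all peaks (1035 of 106382). The largest lay in the coding sequence of Alas2, the erythroid enzyme of the first step of heme synthesis (chrX:150557186-150557208, plus strand). It held 2, 1 and 1 reads in KO Ago, against 30, 26 and 13 in WT Ago, with no overlap. The log2 change was -3.76 ± 0.54 (SE, edgeR adjusted p = 0.000149). A coding member of Tfrc, the transferrin receptor, held 6, 4 and 1 reads in KO Ago and 28, 15 and 14 in WT Ago. This peak was too low to be tested, and its groups did not overlap. Sptb, a spectrin of the red cell skeleton, held 1, 3 and 0 reads in KO Ago and 5, 9 and 5 in WT Ago. Epor, the erythropoietin receptor, held 1 and 12, and Ermap, an erythroid membrane protein, held 8 and 18. Slc25a37, the mitochondrial iron importer mitoferrin, held 1, 0 and 0 reads in KO Ago and 8, 9 and 5 in WT Ago at an intronic member. That value is uncertain, because a peak of Gm16867 elsewhere on chromosome 14 had the same count in each of these libraries. Over all peaks of the red cell list, 135 were tested, 33 were called lower and 1 higher, with a median log2 change of -0.45. Of all 2425 tested peaks, 17.6% were called lower and 1.4% higher.

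A list of 16 literature targets of miR-451a, 14 of them with a peak, held 0 members among its 220 peaks. Peaks with a miR-144-3p code are not members, so a position-7 site beside such a code would not be counted. Lists of hepatocyte, megakaryocyte, granulocyte and progenitor genes, with 408, 12, 73 and 43 peaks, also held 0 members. Members were rare among all peaks, so 0 in the smaller of these lists is not read as an absence. The macrophage list held 1 among 38 peaks, in Vcam1, with 4, 9 and 0 reads in KO Ago and 3, 4 and 4 in WT Ago. Peaks of the 15 hepatocyte genes took 1.24% to 2.42% of peak reads in KO Ago and 0.663% to 1.97% in WT Ago. Peaks of the red cell list took 1.74% to 2.13% in KO Ago and 2.24% to 2.73% in WT Ago. Of its 31 genes, 24 matched a peak by current or older symbol, and the others are not analysed here. In such bulk samples fewer cells of a type and less RNA per cell cannot be told apart, and the part of these shares in the results was not tested.

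The lowest fitted change among tested members was at Wdhd1, a replisome protein, in an intron (chr14:47267071-47267099, minus strand). This peak also carried a deposited code of 5 for miR-144-5p, another microRNA of the deleted locus, so it is not a site of miR-451a alone. The Wdhd1 peak held 0, 1 and 0 reads in KO Ago and 35, 31 and 19 in WT Ago. Its log2 change was -5.78 ± 0.67 (SE, edgeR adjusted p = 7.15e-05), a size that rests on 1 KO read. Summed reads scaled for depth were 71.4 times lower in KO Ago, with a counting interval of 12.5 to 2853 times. Racgap1, which acts in cytokinesis, held 0, 0 and 1 reads in KO Ago and 15, 26 and 16 in WT Ago at a 3′UTR member (chr15:99628634-99628663). Its log2 change was -5.17 ± 0.71 (SE, edgeR adjusted p = 0.00012). Neither peak had any overlap between the groups.

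Regulators of transcription, chromatin and protein turnover followed. Kmt2a, a histone methyltransferase also known as MLL, held 0, 2 and 1 reads in KO Ago and 17, 34 and 11 in WT Ago at a 3′UTR member (chr9:44803922-44803957). Its log2 change was -3.94 ± 0.57 (SE, edgeR adjusted p = 0.000156). Rbms1, an RNA-binding protein, held 0, 1 and 2 reads in KO Ago and 25, 31 and 14 in WT Ago in its 3′UTR, a log2 change of -4.14 ± 0.58. The groups of both genes were well apart. Usp47, a deubiquitinase, held 1, 0 and 0 reads in KO Ago and 23, 20 and 11 in WT Ago in its coding sequence (chr7:112067130-112067168). Its log2 change was -5.11 ± 0.74. Asb1, a substrate receptor of a ubiquitin ligase, held 4, 7 and 1 reads in KO Ago and 32, 42 and 24 in WT Ago at an intronic member, a log2 change of -2.79 ± 0.4. It kept more KO reads than the other called peaks named so far.

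The remaining 4 of the 12 lower members named by smallest p span other functions. Glul, which makes glutamine, held 2, 2 and 1 reads in KO Ago and 21, 29 and 11 in WT Ago in its 3′UTR, a log2 change of -3.26 ± 0.47. Tmem57, a membrane protein also called macoilin, held 2, 1 and 2 in KO Ago and 33, 31 and 14 in WT Ago in its 3′UTR, a log2 change of -3.62 ± 0.53. A 3′UTR member of 2310036O22Rik held 2, 4 and 2 reads in KO Ago and 20, 31 and 15 in WT Ago, a log2 change of -2.74 ± 0.41. None of these had overlapping groups. A coding member of Rpl32, a ribosomal protein, held 2, 0 and 1 reads in KO Ago and 21, 31 and 27 in WT Ago. Its identity is uncertain, since an intergenic peak at chr13:104431169-104431198 had the same counts in all 12 libraries, and both are counted among the 29. Of the 41 tested members, 4 had such a near-identical copy, and without them 27 of 37 were called lower. The other called members had log2 changes between -4.33 and -1.18, the smallest at Eef2, a translation elongation factor.

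**Figure D4:**
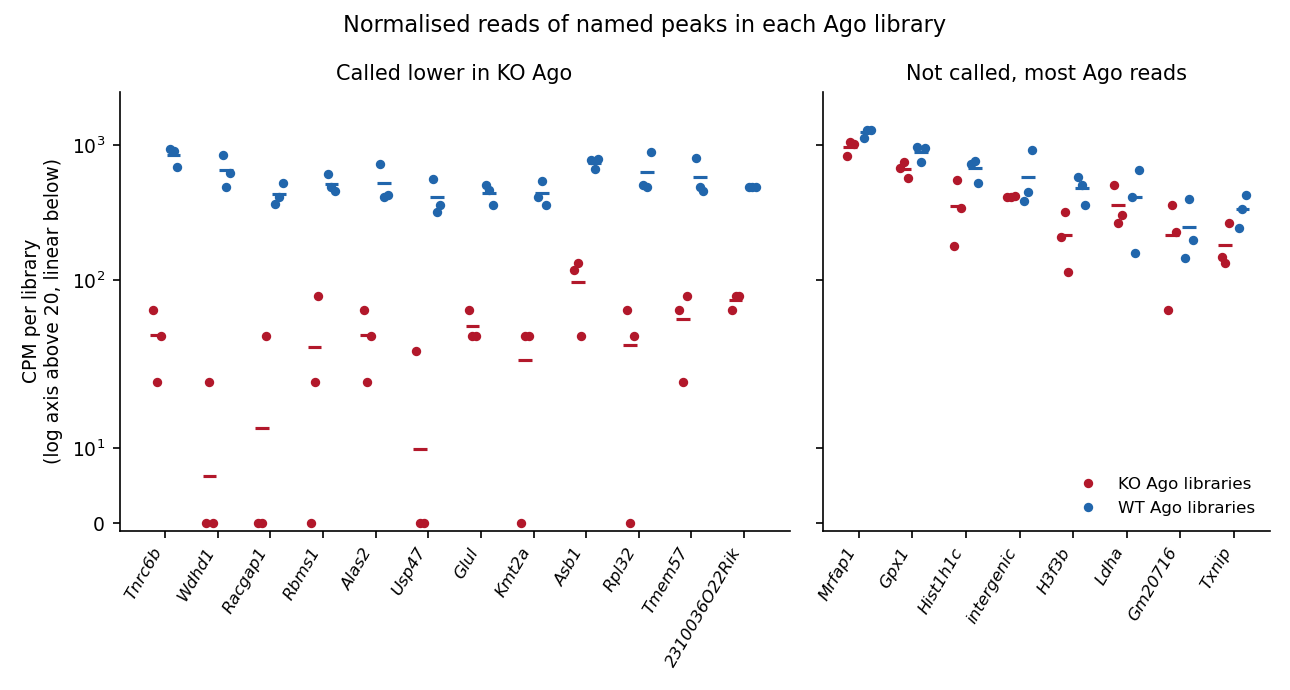
Depth-scaled reads (CPM, log axis above 20 and linear below) of the 12 named peaks called lower and of the 8 uncalled peaks with the most Ago reads, with KO Ago libraries in red beside WT Ago libraries in blue, 1 point per library and the mean as a line. At Tnrc6b the means are 38.8 and 850 CPM; in the right panel the groups lie close together or overlap.

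The 12 tested members that were not called included some of the best covered. Mrfap1, an interactor of chromatin proteins of the MORF4 family, had the most reads, with 28, 56 and 27 in KO Ago and 47, 81 and 40 in WT Ago at a 3′UTR member (chr5:36795761-36795796). Its level was 973 ± 124 CPM in KO Ago and 1251 ± 92.9 CPM in WT Ago (SD, n = 3 each). The log2 change was -0.36 ± 0.29 (SE, edgeR adjusted p = 0.481), although the KO CPM values lay below the WT values. Gpx1, a glutathione peroxidase, held 23, 40 and 15 reads in KO Ago and 40, 47 and 29 in WT Ago, a log2 change of -0.38 ± 0.3. Both are well covered, and their standard errors are small beside the change at Tnrc6b.

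Among the other uncalled members, Hist1h1c, a linker histone, had a log2 change of -0.87 ± 0.38 (SE) and H3f3b, a histone variant, of -1.08 ± 0.39. Their edgeR adjusted p-values were 0.149 and 0.0738. Without KO Ago library 12 the edgeR adjusted p was 0.0316 for Hist1h1c and 0.0336 for H3f3b, and without WT Ago library 10 it was 0.0414 for H3f3b. Txnip, which binds thioredoxin, had a log2 change of -0.93 ± 0.41, Gm20716 of -0.19 ± 0.52 and Ldha, lactate dehydrogenase, of -0.1 ± 0.48. The KO and WT values of these 3 overlapped. Only 3 of the 41 tested members had a change above 0, and they are named after their values were seen. An intronic peak of Elf1, a transcription factor, held 10, 17 and 7 reads in KO Ago and 5, 8 and 9 in WT Ago, a log2 change of 0.83 ± 0.42 (SE, edgeR adjusted p = 0.239). An intergenic peak at chr1:34434851-34434883 was its near-identical copy, at 0.75 ± 0.42, so neither can be placed with certainty. Atpif1, an inhibitor of the mitochondrial ATP synthase, was at 0.09 ± 0.39. The groups of all 3 overlapped. The uncalled intergenic peak at chr13:54190150-54190182 held 14, 22 and 11 reads in KO Ago and 16, 28 and 28 in WT Ago. It also held 21, 32 and 8 reads in KO IgG and 15, 23 and 8 in WT IgG, despite the lower depth of those libraries.

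Whether a member moved apart from the other Ago peaks of its gene was asked with edgeR's test of each peak relative to its gene. Another tested peak was present for 26 of the 41 members. Of these, 13 were called lower relative to their gene and 0 higher, where 7.94% of the 1398 peaks tested this way were called lower. The 97 other tested peaks of these genes included 11 called lower and 0 called higher in the plain comparison, where 17.6% of all tested peaks were called lower. In Tnrc6b the 7 other tested peaks had log2 changes of -0.34 to 0.47, and the member was lower relative to the gene by a log2 change of -4.34 (edgeR adjusted p = 2.05e-07). In Btg2, an antiproliferative protein that binds the CCR4-NOT deadenylase, the 3′UTR member held 1, 2 and 3 reads in KO Ago and 21, 24 and 15 in WT Ago. Its 11 other tested peaks had a median log2 change of 0.36, and the relative change was -3.26 (edgeR adjusted p = 1.76e-05).

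Alas2 showed the same pattern within a gene whose other peaks leaned lower. Its 11 other tested peaks had log2 changes of -1.26 to 0.32 with a median of -0.59, none of them called, and the relative change of the member was -3.29 (edgeR adjusted p = 9.25e-05). Rbms1 had 2 other tested peaks, at 0.13 and 0.3, and a relative change of -3.68 (edgeR adjusted p = 9.25e-05). In Kmt2a the single other tested peak had a log2 change of 0.58, and the relative change of the member was -3.48 (edgeR adjusted p = 0.000243). In Glul the relative change was also negative, at -0.68, but was not called (edgeR adjusted p = 0.663). Its other tested peak was itself called lower, at -2.12. Without KO Ago library 3 21 of 59 members (35.6%) were lower relative to their gene, against 50% above, with 5.81% of all peaks tested. Without KO Ago library 13 it was 20 of 59 (33.9%), with 5.45% of all.

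**Figure D5:**
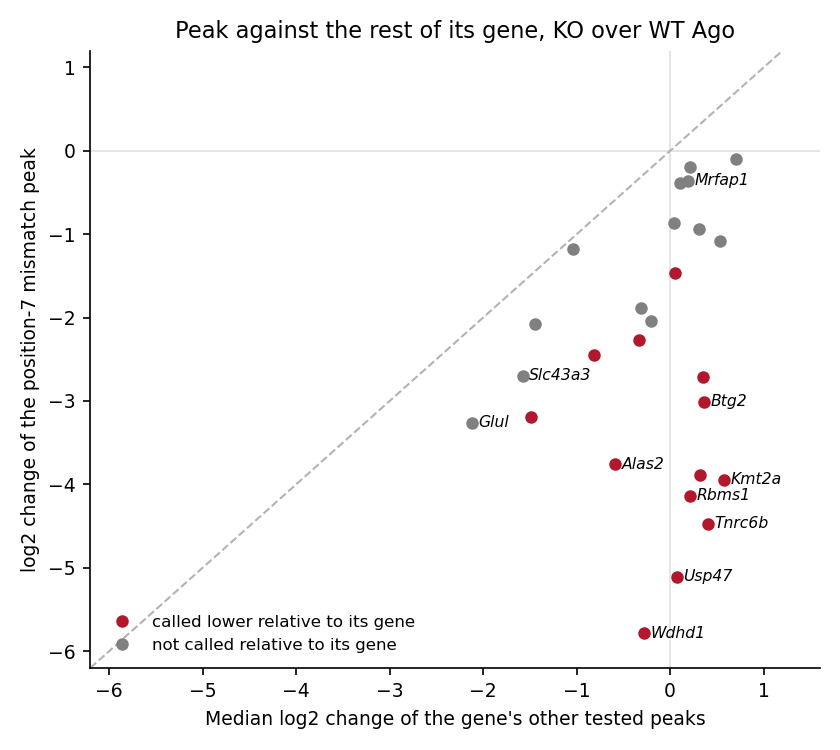
Log2 change of KO over WT Ago for 26 tested position-7 mismatch peaks (vertical) against the median log2 change of the other tested peaks of the same gene (horizontal), in red where the peak was called lower relative to its gene; the dashed line marks equal change. Tnrc6b and Btg2 lie far below the line with other peaks at 0.4 and 0.36, and Glul lies nearer to it.

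Of 857 genes with a member, 84 held 2 or more and 12 held 3 or more. Usp47 held 4, all in coding sequence, with 5 KO Ago and 108 WT Ago reads in sum. Beside the tested peak, its 3 others held 2, 1 and 1 reads in KO Ago and 19, 19 and 16 in WT Ago. All 4 sites of Usp47 were thus low in KO Ago. Kmt2a held 3 members that did not behave alike, with 3, 1 and 3 reads in KO Ago and 62, 12 and 2 in WT Ago for the 3′UTR, coding and intronic members. Lemd3, an inner nuclear membrane protein, also held 3, with 0, 4 and 2 reads in KO Ago and 36, 8 and 3 in WT Ago. The 5 members named for Gm16867 and the 3 for Gm27177 cannot be assigned with certainty, since 3 of each had the same Ago counts as a peak of the other gene.

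Of the 994 members too low to be tested, 828 (83.3%) had fewer KO Ago than WT Ago reads after scaling for depth. Among the 102963 other peaks not tested it was 44.5%. The untested members took 0.463% ± 0.0105 of peak reads in KO Ago and 1.33% ± 0.157 in WT Ago (SD, n = 3 each). A coding member of Urb1, a ribosome biogenesis factor, had the most WT reads together with Fam210b. Urb1 (chr16:90771504-90771527, minus strand) held 0, 0 and 0 reads in KO Ago and 37, 54 and 7 in WT Ago. Its WT reads, scaled for depth, were 23.7 times a limit of 3 reads over the 3 KO libraries. That limit covers counting error in KO alone and leaves out the spread of the WT libraries. A further coding member of Urb1 held 0 KO Ago and 18 WT Ago reads, and its 3′UTR member held 6 and 9. Fam210b, a mitochondrial protein, held 5, 1 and 0 reads in KO Ago and 60, 18 and 20 in WT Ago. Dennd4a, an activator of Rab GTPases, held 1, 1 and 0 reads in KO Ago and 19, 36 and 8 in WT Ago. No group overlap was seen at Urb1, Fam210b or Dennd4a. These 3 were chosen for their WT Ago reads among peaks too low for the test. That choice favours KO reads below WT reads, so the lack of overlap is a description only.

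The authors' deposited table of differential peaks, made with voom and limma on 6651 peaks, held 169 members. In the authors' deposited table, a total of 153 of these (90.5%) were lower in KO at a false discovery rate under 0.05 and 0 were higher, against 35.7% lower among all its peaks. The median log2 change there was -3.21 for members and -0.65 for all peaks of the authors' deposited table. Of its members, 146 were not tested above, and 132 of those were lower. Urb1 had the most negative log2 change in the authors' deposited table, -5.92 with a false discovery rate of 4.11e-06. These counts rest on the same KO and WT libraries as the tests above and are not independent of them.

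Ago libraries were then set against IgG to see which members held reads above control precipitation. The shallow IgG libraries left few to test. The read filter applied here too, so a member with few IgG reads could enter only through its Ago reads. That favours calls higher in Ago, and the counts below describe only the members tested. In KO, 5 members were tested, and 1 was higher in Ago, 1 was lower and 3 were not called, where 40% of the 645 tested peaks were higher. Mrfap1 was the one higher, with 111 reads in KO Ago and 1 in KO IgG. In WT, 12 members were tested, and 9 were higher in Ago, 2 were lower and 1 was not called, where 35.9% of the 894 tested peaks were higher. The 9 were Tnrc6b, Urb1, Wdr26, Asb1, Slc43a3, Actb, Mrfap1, Rps3 and Gpx1. Tnrc6b held 117 reads in WT Ago and 8 in WT IgG, a log2 difference of 2.96 ± 0.57 (SE, edgeR adjusted p = 0.000697). Gpx1 held 116 in WT Ago and 0 in WT IgG. The 2 lower in WT Ago were intergenic, and the one lower in KO Ago was among them, with 10 reads in KO Ago and 33 in KO IgG, and 17 in WT Ago and 51 in WT IgG. The call counts changed with single libraries. Without any one of the WT Ago libraries 0 or 1 of 3 tested members was higher, and without any one of the WT IgG libraries 36 to 39 of 50 to 53 were. In KO the count was 0 without any one Ago library and 2 without any one IgG library.

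Over all members, 645 of 1035 had 0 reads in the 6 IgG libraries. The authors' ratio of IgG to Ago peak height was under 0.2 for 88.7% of members and 71.4% of the other peaks. Members seldom carried a second strong match. With weaker codes included, however, 98 of the 1035 carried some code of miR-144-5p, which comes from the same deleted locus. A 6-mer or longer match was coded for miR-16-5p in 4.16% of members and 6.38% of all peaks, for miR-21a-5p in 1.06% and 0.943%, for miR-122-5p in 1.64% and 1.63%, and for miR-144-5p in 0.58% and 0.634%. In 137 of the genes with a member, another peak carried a miR-451a 6-mer or longer code, and 7 tested members lay in such genes.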

How the data were processed

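The authors' deposited peak table gave raw read counts per peak and library (reads overlapping a peak by 16 or more bases, per the deposited column description). The deposited coverage signal was not tested. The authors' deposited code of a seed match is a score that ranks the match found near a peak, and their IgG ratio compares summed peak heights. The authors' log2 changes, p-values and false discovery rates were copied, not recomputed. The submitters' processing notes name build mm10 and the tools cutadapt, STAR, bedtools and limma, without versions or roles.

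Counts were tested with edgeR 4.0.16 (R 4.3.3): TMM scaling, filterByExpr (minimum count 10, minimum total 15), the quasi-likelihood test on the 6 libraries of each comparison, and Benjamini-Hochberg adjustment over all tested peaks at 0.05. Standard errors were derived from the F statistic. Listed genes were matched by RefSeq symbol or unique synonym. A peak was set against its gene with diffSpliceDGE. CPM values use the TMM-scaled reads of tested peaks. Library numbers are not shared between groups, so nothing was paired. Peaks of 30 or more reads whose counts differed by at most 10%, with widths within 2 bases and equal codes, were taken as copies. The tests were also run on simulated counts with a common spread for all peaks and as many changes up as down. These data differ from that setting, so the run does not show how the tests behave here.

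Members and gene lists were chosen with earlier results of these data known. Named were the 12 lower members with the smallest p (1 per gene), up to 3 higher, the 8 uncalled with the most reads, the 5 with the smallest p relative to their gene, tested members of listed genes, and the 3 untested members with the most WT Ago reads. Alternatives were the filter, library size alone, DESeq2 1.42.0, limma-voom (limma 3.58.1), all 12 libraries in one fit, the authors' peaks only, other membership rules and each library left out. The values of 1 gene of the red cell list are not reported here.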

Additional observations from a re-analysis of the deposited data

How the results depend on the processing

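The count of members lower in KO Ago was 29 of 41 in the main setting, where 17.6% of all tested peaks were lower. With no filter it was 211 of 1035 (2.54% of all), with the looser filter 102 of 154 (13.3% of all) and on the authors' peaks alone 142 of 169 (28.5% of all), where 1 intergenic member was called higher (log2 change 1.48, edgeR adjusted p = 0.0452). Fewer or more peaks tested is part of each of these settings. DESeq2 gave 28, limma-voom 30, library size alone 28 and all 12 libraries in one fit 27. Among the 39 tested members without any other deposited code, 27 were lower (17.6% of all). Leaving out 1 library gave 23 to 77 lower and 0 higher. The median log2 change of tested members was -2.02 with no filter, -2.38 with the looser filter, -2.53 with library size alone, -2.56 with limma-voom, -2.35 with all 12 libraries in one fit and -3.14 on the authors' peaks. It was -2.6 when miR-144-3p codes were ignored, and -2.9 to -2.58 with 1 library left out. The count lower relative to their gene, 13 of 26 in the main setting (7.94% of all), was 44 of 923 with no filter (0.461% of all), 46 of 104 with the looser filter (6.46% of all, with 1 member higher), 8 of 16 in genes with 3 or more tested peaks (8.53% of all) and 9 to 21 with 1 library left out. Members higher in Ago than IgG numbered 9 in WT, 178 with no filter, 40 with the looser filter and 0 to 39 with 1 library left out. In KO they numbered 1, 9 with no filter, 2 with the looser filter and 0 to 2 with 1 library left out. The cause of these shifts was not tested beyond the number of peaks each setting admits. Among named peaks, calls changed only for Hist1h1c and H3f3b, which passed without 1 library. The uncalled changes near 0 turned sign: Ldha, -0.1 in the main setting, was 0.069 with library size alone, 0.11 with limma-voom, 0.24 with all 12 libraries in one fit and -0.55 to 0.35 with 1 library left out. Gm20716, -0.19 in the main setting, was 0.12 with all 12 libraries in one fit and -0.61 to 0.23 with 1 library left out. No paired analysis was possible because library numbers are not shared between groups. Depth limits the rest: most members are too thinly covered for a test of their own.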
